A study of Mus musculus with 6 samples.

Results

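The SLAM family is a set of immunoglobulin-like receptors of blood cells, most of them coded side by side on mouse chromosome 1. Described here are 8 of its receptor genes, Slamf1, Cd48, Ly9, Cd84, Slamf6, Slamf7, Slamf8 and Slamf9, and Sh2d1b1, the gene of the adaptor EAT-2, which were taken by gene name from a deposited table of 55401 genes. All 9 names were found once each in it. RNA sequencing covered leukaemic bone marrow cells of 6 mice, 1 library a mouse, all from secondary transplants of a HoxA9/Meis1 leukaemia. In the Lym group (mice 62, 63 and 87) the recipients had received lymphoid leukaemic stem cells, and cells labelled lymphoid (Lym+) were sequenced. In the Lin- group (mice 56, 57 and 91) they had received Lin- leukaemic stem cells, and Lin-cKit+ progenitors were sequenced. Triplets of values below follow these orders of mice. Strain, age, the surface gate behind the word lymphoid and the donor leukaemia of each mouse are not given in the labels used here, and normal bone marrow was not analysed here.

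Most SLAM receptors bind a second copy of themselves on a neighbouring cell, and signal through short tyrosine motifs that recruit the small adaptors SAP, EAT-2 and ERT or, in their absence, phosphatases. CD48 is an exception: it is held in the membrane by a lipid anchor and is the ligand of CD244 and of CD2. In normal mouse marrow the pair CD150 (the product of Slamf1) and CD48 is used to sort stem cells, which carry CD150 and lack CD48, from more mature progenitors, of which most carry CD48.

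Of the 9 genes, 4 carried nearly all the reads in both groups, and the gene of the stem cell receptor CD150 was almost silent in both. Cd84, Cd48, Ly9 and Sh2d1b1 held between 97.0% and 99.2% of the reads of the 9 genes in every library. Slamf1 had 6 reads in all 6 libraries together, against 7595 for Cd48 and 9792 for Cd84. No member passed the test between Lym and Lin-, and the widest difference among those tested was in Ly9, lower in Lym by a log2 difference of -0.34 ± 0.17 (SE).

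The start-site windows of 5 of these genes and of 1 paralogue are shown first, because the genes lie close together or are near-copies of each other and yet stood at very different levels. They come from RefSeq tables of build GRCm38.p6 and run from 250 bases before to 50 bases after the annotated start; 8 of the 9 members matched an entry, and Ly9 did not. The first pair belongs to Sh2d1b1 and to its paralogue Sh2d1b2, the gene of the adaptor ERT. Over the 6 libraries Sh2d1b1 had 1720 reads and Sh2d1b2 had 7. Capitals mark bases that differ between the 2 windows within the stretch that aligns.
Sh2d1b1, chr1:170277068-170277367, + strand: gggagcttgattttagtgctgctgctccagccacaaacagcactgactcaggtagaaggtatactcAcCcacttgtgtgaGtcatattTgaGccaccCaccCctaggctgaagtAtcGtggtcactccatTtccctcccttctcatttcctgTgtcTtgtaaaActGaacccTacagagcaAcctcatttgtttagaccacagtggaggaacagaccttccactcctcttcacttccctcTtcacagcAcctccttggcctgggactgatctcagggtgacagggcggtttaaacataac
Sh2d1b2, chr1:170232621-170232920, + strand: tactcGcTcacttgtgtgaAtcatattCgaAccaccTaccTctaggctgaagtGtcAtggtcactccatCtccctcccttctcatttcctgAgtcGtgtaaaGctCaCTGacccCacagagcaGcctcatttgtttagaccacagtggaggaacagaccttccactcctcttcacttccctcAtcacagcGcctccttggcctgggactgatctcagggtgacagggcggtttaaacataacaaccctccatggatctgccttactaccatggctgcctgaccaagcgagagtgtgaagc
Over 239 aligned bases, from base 62 to 300 of the Sh2d1b1 window and from base 1 to 242 of the Sh2d1b2 window, 221 were identical, or 92.5%. The 2 genes lie 23711 bases apart in the same orientation.

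The second set compares a pair of abundant receptor genes, Cd48 and Cd84, with a pair that had few reads, Slamf1 and Slamf7. Capitals mark TGTGGT, the core letters of a RUNX site, and CAGCTG, the letters of an E-box, each read on both strands.
Cd48, chr1:171681742-171682041, + strand: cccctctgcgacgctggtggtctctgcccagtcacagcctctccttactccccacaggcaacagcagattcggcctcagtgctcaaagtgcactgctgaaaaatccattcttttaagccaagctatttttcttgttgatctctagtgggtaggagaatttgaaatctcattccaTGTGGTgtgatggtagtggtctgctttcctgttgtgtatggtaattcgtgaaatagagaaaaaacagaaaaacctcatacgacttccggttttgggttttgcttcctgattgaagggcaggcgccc
Cd84, chr1:171839447-171839746, + strand: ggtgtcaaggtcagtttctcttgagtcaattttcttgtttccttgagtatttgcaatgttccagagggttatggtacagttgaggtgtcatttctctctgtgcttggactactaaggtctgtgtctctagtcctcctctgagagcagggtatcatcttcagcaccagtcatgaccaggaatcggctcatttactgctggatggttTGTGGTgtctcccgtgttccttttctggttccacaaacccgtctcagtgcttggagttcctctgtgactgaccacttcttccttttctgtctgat
Slamf1, chr1:171766882-171767181, + strand: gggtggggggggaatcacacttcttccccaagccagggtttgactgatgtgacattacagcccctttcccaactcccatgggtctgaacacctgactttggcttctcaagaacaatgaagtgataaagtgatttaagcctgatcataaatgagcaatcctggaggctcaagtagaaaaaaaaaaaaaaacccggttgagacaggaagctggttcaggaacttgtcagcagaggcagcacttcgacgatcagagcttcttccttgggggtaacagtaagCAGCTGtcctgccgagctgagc
Slamf7, chr1:171648950-171649249, - strand: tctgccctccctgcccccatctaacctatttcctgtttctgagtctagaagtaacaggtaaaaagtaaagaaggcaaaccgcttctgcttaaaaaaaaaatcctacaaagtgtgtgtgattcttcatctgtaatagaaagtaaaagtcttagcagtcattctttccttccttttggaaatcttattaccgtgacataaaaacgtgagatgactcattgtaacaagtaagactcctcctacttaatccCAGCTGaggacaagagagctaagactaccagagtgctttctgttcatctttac
TGTGGT was found in the windows of Cd48, Cd84 and Sh2d1b1 among the members, 3 of 8, and in 16.9% of 27025 windows of this length in the mouse table. The window of Sh2d1b2 held it as well. CAGCTG was found in the windows of Slamf1, Slamf7, Slamf8 and Slamf9, 4 of 8, and in 16.1% of all windows. All 5 motifs searched, each on both strands, were chosen after the windows and the levels had been seen. Of the other 3, GGAA (which overlaps GAGGAA) was in 7 of 8 members and 95.9% of all windows, GAGGAA in 4 of 8 and 28.3%, and TATAAA in 0 of 8 and 14.2%. Such a match is a run of letters and not a bound site.

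The libraries held between 18537700 and 22634286 reads assigned to genes. Values are normalized counts, reads divided by 1 factor for each library, and 3 reads corresponded to 2.64 to 3.36 normalized counts. Across all genes tested, the correlation of Lym mouse 87 with Lin- libraries was 0.965 to 0.979. With its own group it was 0.927 and 0.948. Calls that appear when this mouse is left out are given beside each gene. Leaving out the Lym library most like Lin- favours wider differences between the groups. Such calls are therefore a description and no independent evidence of a difference. Genes within a library are not independent of each other. The library of Lym mouse 62 was made from 1 ng of RNA and the others from 2 ng. Hoxa9 was between 5224 and 11116 and Meis1 between 11303 and 22600, with groups that overlapped in both. Kit, the receptor that marks the Lin-cKit+ cells, was at 4953, 6066 and 3420 in Lin- against 18902, 12027 and 3158 in Lym. Among lymphoid markers, Cd3e was at 35.9 in Lym mouse 62, at 0 in Lym mice 63 and 87, and at most 1.03 in Lin-. The 8 T cell markers summed to 2.51 to 2.72 CPM (reads per 1e6 assigned reads) in Lym and at most 4.45 in Lin-. These T cell sums overlapped, with Lin- mouse 91 highest. The 6 B cell markers summed to 2.08, 0.647 and 0.422 CPM in Lym and to 0.0442 to 0.250 in Lin-. Of these 6, Ms4a1 and Pax5 had 3 reads or fewer in every library. More genes had a read in Lym mice 63 and 87, at 24027 and 23836, than in the other 4 libraries, at 19427 to 20358.

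Cd48 was the highest of the family for its length and differed little between mice. It was at normalized counts of 1436, 1291 and 977 in Lym against 1358, 1313 and 1140 in Lin-. The 2 groups overlapped, with Lym mouse 87 lowest, and the highest library was 1.47 times the lowest. The log2 fold change, Lym minus Lin- on the scale of log2(normalized count + 2), was -0.06 ± 0.17 (SE, limma adjusted p = 0.921). Its 95% confidence interval ran from -0.44 to 0.33, which is 0.737 to 1.26 times the Lin- level.

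Cd84, a receptor that binds itself and is found on many blood cells, had the most reads of the 9 genes. It was at 2129, 1736 and 953 in Lym against 1542, 2037 and 1320 in Lin-. Lym mouse 87 was again the lowest and Lin- mouse 91 the next lowest, the same 2 mice as in Cd48, and the groups overlapped. Its log2 fold change was -0.08 ± 0.29 (SE, limma adjusted p = 0.936), with a 95% confidence interval of -0.74 to 0.58. The sign turned when single mice were left out, to 0.26 without Lym mouse 87 and 0.092 without Lin- mouse 57.

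Ly9, the receptor CD229, ran the other way from Cd48 and Cd84 among the Lym mice. Its values were 616, 596 and 831 in Lym against 864, 928 and 776 in Lin-. Lym mice 62 and 63 were the lowest of the 6, and Lym mouse 87 lay inside the Lin- range, so the groups overlapped. The log2 fold change of -0.34 ± 0.17 (SE) had an unadjusted limma p of 0.0807 and a limma adjusted p of 0.524, with a 95% confidence interval of -0.74 to 0.052. It remained negative in all 14 alternatives run, and was -0.49 without Lym mouse 87 (limma adjusted p = 0.0705). The authors' deposited table gave it a log2 fold change of -0.29 with an adjusted p of 0.964.

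Ly9 lies on the minus strand inside the span of Cd244a, the gene of the CD48 receptor, on the plus strand. In GRCm38 Ly9 covers chromosome 1, 171588624 to 171607410, and Cd244a covers 171559193 to 171609746. 1 of the 4 annotated Cd244a transcripts spans all of Ly9. The exons of the 2 genes share 0 bases, but whether strand was used in counting is not stated, so unspliced Cd244a RNA over the exons of Ly9 cannot be told apart from Ly9 reads.

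Sh2d1b1, the adaptor gene, varied more between mice than between groups. It was at 339, 396 and 146 in Lym against 414, 251 and 162 in Lin-. The lowest values were once more those of Lym mouse 87 and Lin- mouse 91, 1 from each group, and the highest library was 2.84 times the lowest. For Sh2d1b1 the log2 fold change was 0.073 ± 0.44 (SE, limma adjusted p = 0.965). Its 95% confidence interval of -0.94 to 1.08 takes in changes of 0.522 to 2.12 times, so a change within that range is not excluded with 3 mice a group. Leaving out 1 mouse at a time moved it from -0.26 to 0.51.

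The other adaptors of the family had few reads or none. Sh2d1b2 was at 0, 6.71 and 0 in Lym against 0, 0 and 1.03 in Lin-, which is 6 reads in Lym mouse 63 and 1 in Lin- mouse 91. Sh2d1a, the gene of SAP, was listed at 0 in all 6 libraries, but 1428 of the 2709 38-base windows of its transcript (52.7%) also occur in Tenm1, so reads from them may not have been assigned to it. Sh2d1b1 was thus the one adaptor gene of the 3 above the level of 3 reads in every library. Of the 38-base windows of its transcript, 401 of 2507 also occur in Sh2d1b2, and the transcripts were 90.3% identical over 2437 aligned bases. How such shared reads were counted is not stated, and 38 bases is the length of each read here. EAT-2 is best known from natural killer cells and phagocytes. The list of 7 natural killer cell markers summed to 1.92 to 8.36 CPM in Lym and 2.81 to 13.9 in Lin-, with Ncr1, Gzma and Eomes at 3 reads or fewer everywhere. The list of 10 monocyte and macrophage markers summed to 303, 468 and 449 in Lym against 616, 583 and 589 in Lin-, with C1qa at 0 in all 6, and their part in the level of Sh2d1b1 was not tested.

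Slamf6, the receptor Ly108, was low but above 3 reads in all 6 libraries. It stood at 31.4, 83.9 and 38.1 in Lym against 51.2, 67.8 and 45.4 in Lin-. The Lym values lay on both sides of the Lin- values, with Lym mouse 63 highest and Lym mouse 62 lowest. The log2 fold change was -0.20 ± 0.45 (SE, limma adjusted p = 0.885), with a 95% confidence interval of -1.22 to 0.81, and leaving out Lym mouse 63 took it to -0.61.

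**Figure D1:**
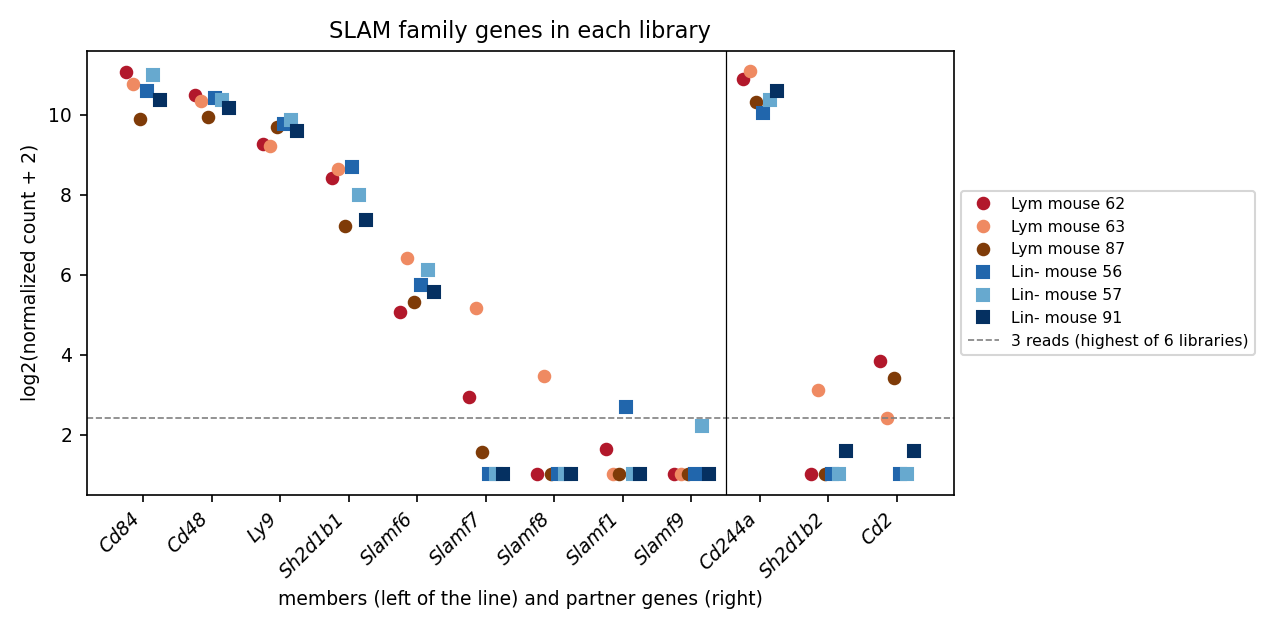
Each point is 1 library, as log2(normalized count + 2), for the 9 members and, right of the line, 3 partner genes. Circles are Lym mice and squares Lin- mice, and the dashed line is 3 reads in the library where that is highest. Cd84, Cd48, Ly9 and Sh2d1b1 lie far above the line in every library with groups that overlap, and Slamf7, Slamf8, Slamf1 and Slamf9 lie at or near the bottom in most.

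The 4 remaining receptor genes did not reach 10 normalized counts in 3 libraries and were not tested. Slamf7, a receptor of natural killer cells, plasma cells and activated phagocytes, was at 5.61, 33.6 and 0.95 in Lym against 0 in all 3 Lin- libraries. That is 5, 30 and 1 reads against none, so 83.3% of its reads came from Lym mouse 63. Set against a floor of 3 reads per Lin- library, the Lym mean was at least 4.79-fold higher, and without Lym mouse 63 it was 3.28, close to the floor of 2.79. The authors' deposited table gave Slamf7 an unadjusted p of 0.0397 and an adjusted p of 0.963. DESeq2 on the recovered reads gave an adjusted p of 0.0732. Of the transcript's 38-base windows, 82 of 3938 also occur in the antisense gene Gm37787, which overlaps 423 bases of its exons. The 4 plasma cell markers summed to 0.214, 1.13 and 0.516 CPM in Lym against 0.250 to 1.19 in Lin-, with Jchain at 0 in every library. Their part in the Slamf7 reads was not tested.

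Slamf8, a receptor of activated macrophages, was at 8.95 in Lym mouse 63, which is 8 reads, and at 0 in the other 5 libraries. Slamf9 was at 2.64 in Lin- mouse 57, which is 3 reads, and at 0 elsewhere. Slamf1 was at 1.12 in Lym mouse 62 and 4.41 in Lin- mouse 56, and at 0 in the other 4. No direction is given for these 3, since each group had 8 reads or fewer. All 8 Slamf8 reads and 30 of the 36 Slamf7 reads fell in the same library, that of Lym mouse 63, which also had the highest Slamf6 value and 6 of the 7 reads of Sh2d1b2. That library had a read in 24027 genes, the most of the 6, and the part of this in these reads was not tested. The RefSeq start used for the Slamf7 window lies inside the GENCODE span of the gene, chromosome 1, 171632403 to 171653035.

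Per kilobase of exon, Cd48 stood clear of every other gene of the family. Its mean over the 6 libraries was 1053 ± 140 normalized counts per kilobase (SD), 3.33 times that of the next, its own receptor gene Cd244a, at 317 ± 87.2, and its lowest library lay above the highest of Cd244a. Cd244a, Cd84 at 258 ± 70.8 and Ly9 at 232 ± 40.9 had ranges that overlapped, and Cd84 was above Ly9 in 3 of 6 libraries, so the order among these 3 is not settled by these data. Sh2d1b1, at 112 ± 45.7, was below Ly9 in 6 of 6 libraries. Slamf6 followed at 4.89 ± 1.81, with Sh2d1b1 at 22.9 times its mean and no overlap. Below Slamf6, the ranges of Cd2, Slamf7, Sh2d1b2, Slamf8, Slamf9 and Slamf1 overlapped those of their neighbours in the order. Among the 14273 genes tested, 94.7% had a lower mean level per kilobase than Cd48, 73.0% a lower one than Cd84 and 3.90% a lower one than Slamf6.

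Neighbours on the chromosome were thus at opposite ends of that order. Slamf1 lies between Cd48 and Cd84, 61868 bases after the end of Cd48 and 38512 bases before the start of Cd84 in GRCm38, and its mean per kilobase was 0.150. Slamf7 lies between Ly9 and Cd48, and stood at 1.46. The 9 receptor genes from Cd244a to Slamf8 span 1031376 bases. With 200000 bases added on either side, this window holds 31 other protein-coding genes, of which 18 passed the filter on low values and 0 the test in limma. Of these 18, 1 had an unadjusted limma p under 0.05, against 10.2% of all genes tested. A higher fitted value in Lym was found in 9 of the 18, against 48.7% of all genes tested. The most abundant were Copa, a subunit of the coat of transport vesicles, at 8135 normalized counts on average, Arhgap30 at 6535 and Tagln2 at 6233.

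**Figure D2:**
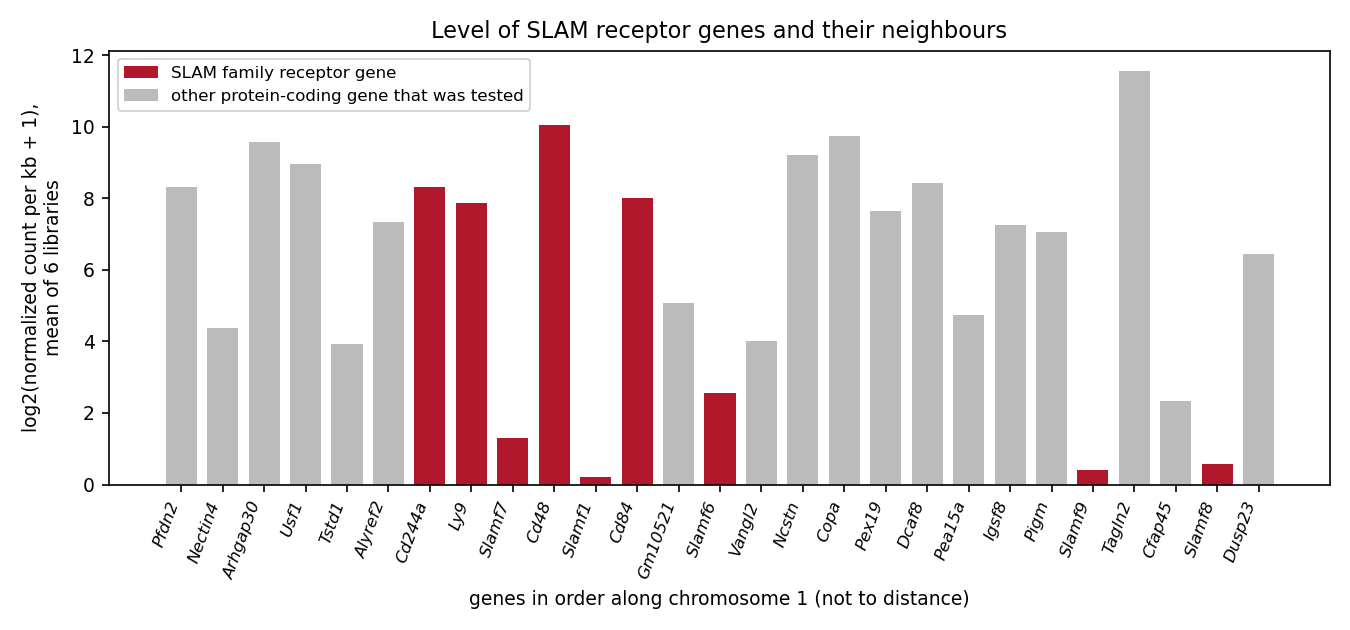
Bars give log2(normalized count per kb + 1), the mean of 6 libraries, for genes in their order along chromosome 1. Red bars are the 9 SLAM receptor genes and grey bars the 18 other protein-coding genes that were tested. Slamf1, at 0.150 per kb, stands between Cd48, at 1053, and Cd84, at 258.

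The make-up of the family in each library turned mostly on Ly9 and Cd84. Ly9 took 13.5% and 14.4% of the reads of the 9 genes in Lym mice 62 and 63, 28.2% in Lym mouse 87 and 20.2% to 22.5% in the Lin- mice. Cd84 took 46.7%, 41.9% and 32.4% in Lym mice 62, 63 and 87 and 36.4% to 44.3% in the Lin- mice. Cd48 held a near constant share, from 28.5% to 33.2% in the 6 libraries. Lym mouse 87 had the largest Ly9 share and the smallest Cd84 share of all 6, so it lay outside the Lin- range on the side away from the other Lym mice. Together the 9 genes took 217, 199.9 and 145 CPM in Lym against 214, 231 and 167 in Lin-. The totals overlapped, with Lym mouse 87 lowest and Lin- mouse 91 next. In RNA from a mixed sample, fewer cells that express a gene and less of its RNA per cell cannot be told apart.

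**Figure D3:**
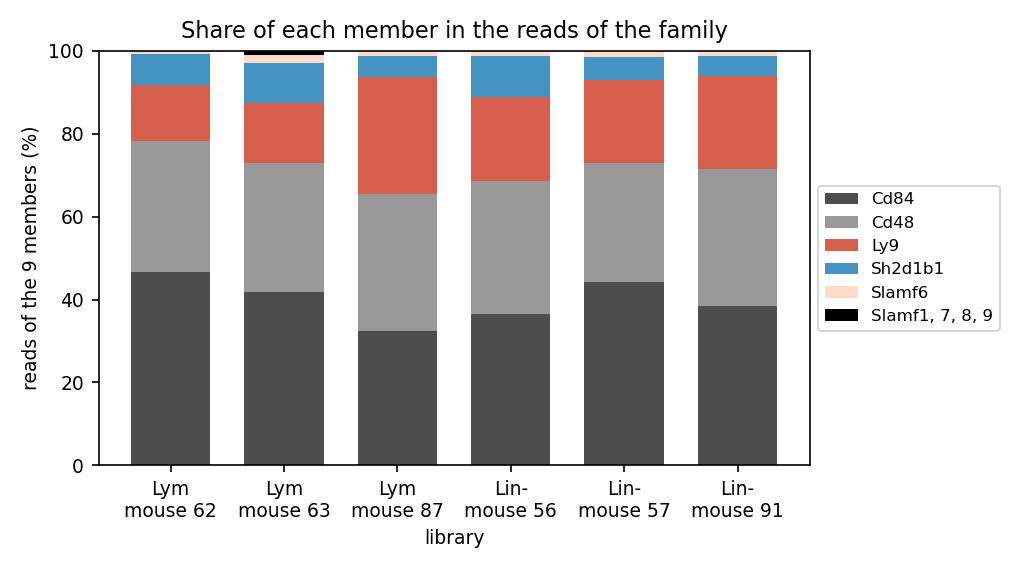
Stacked bars give each member's share, in percent, of the reads that fell on the 9 members in each library. The Ly9 part is 13.5% and 14.4% in Lym mice 62 and 63 and 28.2% in Lym mouse 87, and the Cd48 part lies between 28.5% and 33.2% in all 6.

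Of the 5 members tested, 0 passed an adjusted p of 0.05 in limma, and limma called 0 of the 14273 genes (0%). At an unadjusted p under 0.05 limma had 0 members and 1459 genes, or 10.2% (5.96% higher in Lym and 4.27% lower). The groups did not overlap in 0 of the 5 members and in 15.6% of all genes tested (8.49% higher and 7.08% lower). edgeR on the recovered reads also called 0 of 14273 genes, where 1444, or 10.1%, had an unadjusted p under 0.05, and 0 members. DESeq2 called 203 genes, 1.16% of those with an adjusted p, and 0 members. Without Lym mouse 87 limma called 1348 genes, or 9.67%, and still 0 members. The counts of members were also 0 with no filter on low values, where 0.0158% of genes were called, with library weights, where 4.62% were, and in the authors' deposited table, where 0.32% were. The median log2 fold change of the 5 was -0.079 and that of all genes tested -0.010, and 1 of the 5, Sh2d1b1, was above 0, as were 48.7% of all genes tested. All 5 had over 10 normalized counts in every library, and the other 4 members were too low to enter the limma and edgeR counts made with the filter.

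CD244, the receptor of CD48, signals through the same adaptors as the other members of the family. Cd244a was at 1896, 2183 and 1277 in Lym against 1045, 1317 and 1544 in Lin-. Lym mice 62 and 63 were the highest of the 6, and Lym mouse 87 lay within the Lin- range. On the log2 scale the Cd244a difference was 0.44 ± 0.22 (SE, limma adjusted p = 0.524), and without Lym mouse 87 it was 0.66 and passed (limma adjusted p = 0.0438). Per kilobase, Cd48 exceeded Cd244a by 3.10, 2.43 and 3.14 times in Lym against 5.33, 4.09 and 3.03 times in Lin-. The ratios overlapped, with Lin- mouse 91 among the Lym mice. Cd2, the other receptor of CD48, was at 12.3, 3.36 and 8.58 in Lym against 0, 0 and 1.03 in Lin-, too low to be tested. The 8 T cell markers summed to 2.51 to 2.72 CPM in Lym and at most 4.45 in Lin-, with Cd8a at 0 in all libraries, and their part in the reads of Cd2 was not tested.

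Around the receptors, 7 lists of genes for partners, kinases, phosphatases, later signalling, phagocyte partners, progenitor surface markers and transcription factors held 62 tested genes of 84 listed. None of the 62 passed in limma. Their groups did not overlap in 20 genes higher in Lym and 7 lower, 43.5% together against 15.6% of all genes tested, and 14 higher and 6 lower had an unadjusted p under 0.05, 32.3% against 10.2%. The median log2 fold change of the 62 was 0.18 against -0.010 for all. Several listed genes were known from earlier results of these data to differ, so these shares are no independent evidence of a direction. No limma call was made among them either without Lym mice 62 or 63, and 18 were made without Lym mouse 87, where 9.67% of all genes tested were called.

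Among the 4 tested kinases that act next to SLAM receptors, Fyn showed the widest difference. Fyn, the kinase that SAP brings to the receptors, was at 436, 378 and 144 in Lym against 142, 83.6 and 139 in Lin-. Lym mice 62 and 63 stood well above the rest, while Lym mouse 87 exceeded the highest Lin- library by under 2 normalized counts. On the log2 scale the Fyn difference was 1.27 ± 0.43 (SE, limma adjusted p = 0.446, unadjusted p = 0.0179). DESeq2 on the recovered reads called it (adjusted p = 0.0296), the authors' deposited table had an adjusted p of 0.0708, and limma called it with library weights (adjusted p = 0.0389) and without Lym mouse 87 (adjusted p = 0.0110). Lyn, the most abundant of these kinases but for Csk, was at 3359 ± 401 in Lym and 3356 ± 354 in Lin- (SD, n = 3 each). Csk, which restrains such kinases, was at 3596 ± 331 against 3195 ± 392. Of the 9 kinases listed 5 were too low to be tested. Among them, Lck was at 97.6, 19.0 and 1.91 in Lym against 8.82, 0.88 and 5.16 in Lin-. Yes1 was at 4.49, 4.48 and 6.67 against 0, 0.88 and 0.

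The phosphatases that the same receptor motifs recruit were abundant in both groups. Ptpn6 (SHP-1) was at 8375 ± 1498 in Lym and 8552 ± 795 in Lin-, and Ptpn11 (SHP-2) at 3961 ± 69.2 and 3813 ± 243 (SD, n = 3 each). Inpp5d (SHIP-1) was at 8370, 9947 and 7249 in Lym against 5957, 6400 and 7152 in Lin-. The Inpp5d groups did not overlap, though Lym mouse 87 and Lin- mouse 91 were close, and the log2 fold change was 0.38 ± 0.14 (SE, limma adjusted p = 0.452). Ptprc (CD45), on the phosphatase list but itself a membrane protein and not recruited in this way, differed by 0.33 ± 0.16 on the log2 scale. Its groups overlapped (SE, limma adjusted p = 0.507). Without Lym mouse 87 limma called both, Inpp5d at 0.49 (adjusted p = 0.0406) and Ptprc at 0.50 (adjusted p = 0.0290).

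**Figure D4:**
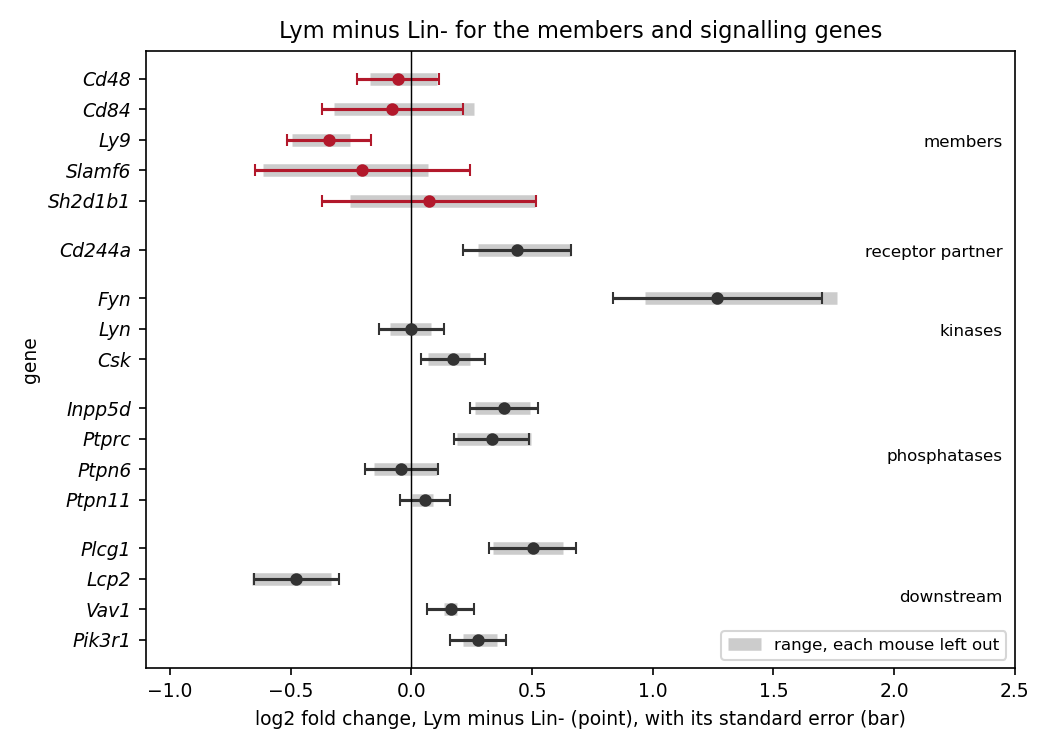
Points are log2 fold changes, Lym minus Lin-, with bars of 1 standard error, for the 5 tested members (red) and for partner and signalling genes (black). Grey bands span the values when each of the 6 mice was left out in turn. Cd48, Cd84, Slamf6 and Sh2d1b1 have bands on both sides of 0, and Ly9 lies below 0 and Cd244a and Fyn above it throughout.

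Further from the receptor, 17 of 21 tested genes of later signalling had a positive fitted value, against 48.7% of all genes tested, with a median log2 fold change of 0.16. The groups did not overlap in 7 of the 21 higher in Lym and 1 lower, against 15.6% of all genes tested. Plcg1 was at 1038 ± 219 in Lym and 725 ± 74.5 in Lin-, Vav1 at 7915 ± 168 and 7074 ± 274, and Pik3r1 at 8521 ± 832 and 7022 ± 383 (SD, n = 3 each). Lcp2, the scaffold SLP-76, differed the other way, at 1336 ± 321 against 1829 ± 130, and in these 4 genes the groups did not overlap. Their limma adjusted p-values were 0.451 to 0.575. Lcp2 was called by limma with library weights (-0.68, adjusted p = 0.0356) and without Lym mouse 87 (-0.66, adjusted p = 0.0174), and the other 3 genes were not. Of the 11 phagocyte partners, which include the integrin through which SLAMF7 acts in engulfment, 6 had a positive fitted value, against 48.7% of all genes tested, and the median was 0.0045. The groups did not overlap in 1 of the 11 higher in Lym and 3 lower, against 15.6% of all genes tested. Itgb2, a chain of that integrin, was at 1866 ± 280 against 2681 ± 240 and Cybb, of the phagocyte oxidase, at 614 ± 348 against 2238 ± 589. Both were without overlap (limma adjusted p = 0.420 for each). Itgam, the other chain of that integrin, differed the other way, at 478 ± 168 against 373 ± 64.8. Its groups overlapped (limma adjusted p = 0.729). Without Lym mouse 87 limma called Itgb2 (-0.64, adjusted p = 0.0192) and Cybb (-2.33, adjusted p = 0.0194), as it did with library weights (adjusted p = 0.0356 and 0.0388). The sum of the 10 monocyte and macrophage markers, led by Ly6c2, was lower in Lym too, at 303 to 468 CPM against 583 to 616. This did not hold for each marker. Adgre1 had groups that overlapped (log2 fold change -0.14, limma adjusted p = 0.843), and C1qa, C1qb and Vcam1 had 3 reads or fewer in every library. The part of these markers in Itgb2 and Cybb was not tested. Cd47 was at 19660 ± 3057 against 16894 ± 279, and its receptor gene Sirpa at 3204 ± 624 against 3694 ± 369.

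Other genes used beside CD150 and CD48 to sort progenitors had 9 of 14 members tested. Of those not tested, Ly6a and Procr had normalized counts of at most 6.67 in any library, Eng reached 33.6 in Lym mouse 62 and Esam 13.3 in Lym mouse 87. Flt3, whose protein is absent from normal stem cells and present on multipotent and lymphoid progenitors, was at 19525, 22805 and 11811 in Lym against 11129, 9840 and 11410 in Lin- (limma adjusted p = 0.441). limma called Flt3 without Lym mouse 87 (0.97, adjusted p = 0.00370) and with library weights (0.91, adjusted p = 0.0283), and Kit without Lym mouse 87 (1.69, adjusted p = 0.00677). Kit was not called by limma with all mice (adjusted p = 0.576) or with library weights (adjusted p = 0.0581). DESeq2 called neither Flt3 (adjusted p = 0.0577) nor Kit (adjusted p = 0.590). Fcgr3 was at 1366 ± 51.2 against 2311 ± 167 (limma adjusted p = 0.223), and Il7r at 424, 82.8 and 14.3 against 2.65, 3.52 and 4.13 (limma adjusted p = 0.420). DESeq2 called Fcgr3 (adjusted p = 0.00217) and Il7r (adjusted p = 0.00297), and limma with library weights called them too (adjusted p = 0.0213 and 0.0270). Without Lym mouse 87 limma called Fcgr3 (-0.79, adjusted p = 0.00726), while Il7r no longer reached the filter on low values. Il7r met that filter only through its 3 Lym libraries, with 3 or 4 reads in each Lin- library. Its limma p-values are thus no independent evidence of a difference. With no filter limma did not call Il7r (adjusted p = 0.518). In all 6 libraries the stem cell sorting pair was thus read as Cd48 high and Slamf1 at 5 reads or fewer.

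Of 11 tested transcription factors of blood lineages, 10 had a positive fitted value, against 48.7% of all genes tested, and 0 passed in limma. Runx1 was at 13101, 10073 and 6419 in Lym against 5199, 5271 and 4632 in Lin-. Its difference was 0.91 ± 0.23 on the log2 scale (SE, limma adjusted p = 0.420). Runx1 was called by DESeq2 (adjusted p = 0.00514), by limma with library weights (adjusted p = 0.0220) and by limma without Lym mouse 87 (1.19, adjusted p = 0.00241). Gata2 was at 6521, 2938 and 1505 against 1152, 974 and 798 in the same order (limma adjusted p = 0.420). DESeq2 did not call Gata2 (adjusted p = 0.0946). limma called it with library weights (1.76, adjusted p = 0.0259) and without Lym mouse 87 (2.18, adjusted p = 0.00502). The 6 mast cell and basophil markers, led by Cpa3, summed to 767, 201 and 26.7 CPM in Lym against 11.0 to 18.8 in Lin-. Of these 6, 4 (Fcer1a, Mcpt4, Prss34 and Tpsab1) had 3 reads or fewer in every library, with Fcer1a at 0 in all 6. The 6 dendritic cell markers summed to 81.2, 36.6 and 16.1 against 12.1 and 14.5 in Lin- mice 56 and 57, with Lin- mouse 91 just below Lym mouse 87. The 6 megakaryocyte and platelet markers, led by Itga2b, summed to 26.8, 11.7 and 2.53 CPM against 1.35 to 2.41. Of these 6, 4 (Pf4, Ppbp, Gp9 and Gp1bb) had 3 reads or fewer in every library, with Ppbp and Gp1bb at 0 in all 6. Itga2b is also among the listed progenitor surface markers. Lym mice 62 and 63 were high in the sums of these 3 lists, as they were in Kit, Gata2, Fyn and Cd244a. The part of such cells in those genes was not tested. Irf8 was at 12299 ± 3145 against 10991 ± 1198 and Tcf3 at 4639 ± 429 against 3673 ± 397 (SD, n = 3 each). In Runx1 and Gata2, Lym mouse 87 was nearest to the Lin- mice, while in Cd48, Cd84 and Sh2d1b1 it lay below all of them.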

How the data were processed

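The tools of the authors, per the submitters' processing notes, were STAR 2.6.1d, featureCounts 1.6.4, DESeq2, Trim Galore 0.6.4 and bcl2fastq, with build GRCm38.p6; strand use, the annotation release and the handling of shared reads are not given in the sources used here. Per the labels, the kit was one for stranded total RNA, with 12 PCR cycles. The deposited library values are a signal, gene counts divided by a size factor. 100% of values up to 10000 were whole multiples of their library's step (tolerance 0.01), so reads were recovered. The authors' deposited table also gives a log2 fold change (turned here to Lym minus Lin-), its standard error, a Wald score and a p-value. Gene models were those of GENCODE M21, which matched 54349 genes.

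limma 3.58.1 with trend was fitted in R 4.3.3 to log2(normalized count + 2) of 14273 genes with at least 10 in at least 3 libraries, with Benjamini-Hochberg adjustment and a threshold of 0.05. edgeR 4.0.16, DESeq2 1.42.0 and the settings of the closing section were alternatives. The fits were also run on simulated counts, but the outcome is not given here and no result above rests on it. Each mouse gave 1 library. Floors of 3 reads cover counting error only, and PCR copies could not be separated from the table. The members, lists and the rule for named genes (from each list, the 2 with the lowest p and the 2 most abundant others) were chosen with earlier results of these data known; Cd2, Sh2d1a, Sh2d1b2, low genes and marker genes were named after their values were seen. A few listed genes are not reported here one by one, and are included in the counts and sums of their lists.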

Additional observations from a re-analysis of the deposited data

How the results depend on the processing

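The 5 members tested had 0 calls in limma, edgeR and DESeq2 and under all alternatives run. Among these settings the other 4 entered only limma with no filter and DESeq2, also with 0 calls. In DESeq2 only Slamf7 of these 4 had an adjusted p (0.0732). The number of calls among all genes, 0 in limma, was 203 in DESeq2, 1 with a pseudocount of 8, 5 with no filter on low values, 660 with library weights estimated by limma, and 0 to 1348 with each mouse left out, the highest without Lym mouse 87. Among the 82 listed genes present it was 5 in DESeq2, 11 with library weights and 0 to 18 with each mouse left out. The shares called among all genes were 1.16% in DESeq2, 4.62% with library weights and 9.67% without Lym mouse 87. With library weights Cd48 turned to 0.044, Cd84 to 0.13 and Slamf6 to 0.31 on the log2 scale, and on TMM-scaled values Lyn turned from 0.0002 to -0.016. With each mouse left out in turn, the log2 fold change ran from -0.17 to 0.10 for Cd48, -0.32 to 0.26 for Cd84, -0.26 to 0.51 for Sh2d1b1, -0.61 to 0.068 for Slamf6, -0.063 to 0.25 for Irf8, -0.088 to 0.083 for Lyn and -0.16 to 0.10 for Ptpn6. The cause of these changes was not tested. Ly9 (-0.49 to -0.25) and Cd244a (0.28 to 0.66) kept their sign. No paired analysis was possible because the groups share no mouse numbers. With 3 mice a group, the intervals of Slamf6 and Sh2d1b1 take in changes of 2-fold.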

Other observations

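Outside the receptors, 1 of the 18 tested genes of the locus had an unadjusted limma p under 0.05, against 10.2% of all genes tested. Vangl2, a planar polarity gene, had its 3 Lym values between 100.05 and 211 normalized counts and its 3 Lin- values between 54.6 and 78.4. The groups did not overlap, as in 15.6% of all genes tested, and the log2 fold change was 1.19 ± 0.35 (SE, limma adjusted p = 0.421). It was named after its values were seen.

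The genes most like Cd84 over the 6 libraries, by Pearson's correlation of log2(normalized count + 2) among named genes tested, were Trpm7 (r = 0.990), Pth1r (0.988) and Tmem82 (0.987). Those most like Ly9 were Sar1b (0.996), C1d (0.993) and Kdelc1 (0.993). They were the closest among the genes tested, with 6 points each that share their libraries, and are given as a description. Sar1b, of vesicle transport, was at 236, 222 and 324 in Lym against 348, 377 and 316 in Lin-, so that it too had its 2 lowest values in Lym mice 62 and 63.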
